A study of Mus musculus with 12 samples.

Results

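The respiratory chain is assembled from the products of 2 genomes, and its genes were read here as 1 set in bulk RNA-seq of mouse aorta. Members were every gene whose symbol names a mitochondrially encoded transcript (mt-), a complex I subunit (Nduf a, b, c, s or v followed by a number), a succinate dehydrogenase subunit (Sdha to Sdhd), a complex III subunit (Uqcr), a cytochrome c oxidase subunit (Cox4 to Cox8), cytochrome c (Cycs) or an ATP synthase subunit (Atp5). The rule found 101 of the 22013 entries of the table. Of these, 13 are encoded by the mitochondrial genome, with 7 in complex I, 1 in complex III, 3 in complex IV and 2 in complex V. The other 88 are nuclear, with 36 in complex I, 4 in complex II, 8 in complex III, 20 in complex IV, 19 in complex V and 1 for cytochrome c. Ndufa4, found through its Nduf symbol, is counted in complex IV. After the filter on low counts 97 were tested, all 13 mitochondrial ones and 84 nuclear ones. Cox5b-ps, Cox7b2, Cox8c and a second entry for Atp5po did not pass the filter and have no test.

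All 12 libraries came from mice infused with angiotensin II (Ang II), a peptide hormone that raises blood pressure, and the RNA is labelled as endothelial cells of the aorta. The 4 groups of 3 libraries were Glra2 global knockout mice given glycine by intraperitoneal injection (KO glycine 4 to 6), the same knockout given saline (KO saline 1 to 3), wild-type mice given glycine (WT glycine 4 to 6) and wild-type mice given saline (WT saline 1 to 3). Glra2 is the gene for a ligand-binding chain of the glycine receptor, a chloride channel. The labelled glycine dose was 800 mg/kg per day, except that KO glycine 5 carries 80 mg/kg per day. The labels do not give ages, sex or whether each library is a separate animal, so the p-values measure the spread between these libraries, which may be technical. There is no group without Ang II.

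Library totals ran from 14458854 to 24292383 estimated counts. Glra2 itself had 0 counts in all 12 libraries, where 3 counts would be 0.124 to 0.207 CPM (counts scaled to library size), so it gives no check of the genotype labels. All 9 endothelial markers (such as Pecam1, Cdh5 and Kdr) were present, with a summed level of 230.3 to 752 CPM. The 6 fibroblast markers summed to 6234 to 21300 CPM and the 6 macrophage markers to 3003 to 16840 CPM, both above the endothelial markers in every library. Such sums are not divided by transcript length, and the lists differ in size. Markers of other cells were present too, with 5 erythroid markers at 10180 to 64090 CPM, 6 smooth muscle markers at 36.7 to 211 CPM, 4 B cell markers at 51.2 to 168 CPM and 7 adipocyte markers at 2.62 to 36.5 CPM in sum. In such bulk samples, fewer cells of a type and less RNA per cell cannot be told apart. Among the wild-type saline libraries, WT saline 2 stood apart with 64.7% of its counts on mitochondrially encoded genes. Among the knockout saline libraries KO saline 1 did so with 50.4%. Counts of called members, the mitochondrial share, the balance over all complexes and the medians over each genome's members are also given without either where they moved. Values by complex and other values use all libraries unless stated.

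Complex I (NADH dehydrogenase), complex III (cytochrome bc1) and complex IV (cytochrome c oxidase) pump protons across the inner mitochondrial membrane, complex II (succinate dehydrogenase) feeds in electrons without pumping, and complex V (ATP synthase) uses the gradient to make ATP. Complex II is wholly nuclear-encoded, while the other complexes need subunits from both genomes. The mitochondrial genome is transcribed as long polycistronic RNAs that are cut into single transcripts, whereas each nuclear subunit has a promoter of its own. Quiescent endothelial cells are known to draw much of their energy from glycolysis and cardiac muscle draws most of its energy from oxidative phosphorylation.

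Per unit of transcript length the mitochondrially encoded members were far more abundant than the nuclear ones. On the scale of the authors' FPKM (fragments scaled to transcript length and library size), the mean over the 12 libraries ran from 1154 for mt-Nd3, a core subunit of complex I, to 115116 for mt-Atp6, the proton channel subunit of ATP synthase. The next most abundant were mt-Co1, the catalytic subunit of cytochrome c oxidase, at 73912 FPKM and mt-Cytb, cytochrome b of complex III, at 62060 FPKM. The highest nuclear member was Atp5mc1, which encodes the c-ring subunit of ATP synthase, at 438 FPKM, followed by the complex I subunit Ndufb8 at 384 FPKM and the complex III subunit Uqcr11 at 318 FPKM. The lowest nuclear member of complex I was its electron-transferring core subunit Ndufs1, at 9.92 to 27.5 FPKM over the 12 libraries. In 11 of the 12 libraries even the lowest mitochondrial member lay above the highest nuclear one.

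The leading mitochondrial transcripts made up similar proportions in all libraries. Among mitochondrially encoded counts, which are not divided by length, mt-Co1, mt-Atp6 and mt-Cytb together made up 62.5% to 65.8% in the 6 knockout libraries and 65.1% to 67.6% in the 6 wild-type libraries. For 2 transcripts the genotypes did not overlap. The share of mt-Co2, a copper-binding subunit of complex IV, was 3.96% to 4.56% in knockout libraries and 3.19% to 3.88% in wild-type libraries. The share of mt-Atp6 was 17.0% to 19.4% in knockout libraries and 19.6% to 21.1% in wild-type libraries. These shares were picked out after all 13 had been seen and are a description without a test.

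Some of these transcripts share bases, so that single reads can match either gene. In GENCODE vM21 (assembly GRCm38), mt-Atp8, a small membrane subunit of ATP synthase, is 204 bases long and its last 43 bases are the first 43 of mt-Atp6, on the same strand of the mitochondrial chromosome. The shared stretch, which opens with the start codon of mt-Atp6, is shown because the split of its reads between both genes depends on the counting:
mt-Atp8 and mt-Atp6: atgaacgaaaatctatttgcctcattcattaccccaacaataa
The pair mt-Nd4l and mt-Nd4 shares 7 bases on 1 strand, and mt-Nd5 and mt-Nd6 overlap by 14 bases on opposite strands. How the counting treated reads shared with nuclear copies of mitochondrial sequence or with processed pseudogenes of nuclear subunits is not stated, and single members are uncertain to that extent.

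Glycine-treated wild-type libraries held a smaller share of mitochondrially encoded counts than saline-treated ones. The share was 38.5%, 30.6% and 36.4% in WT glycine 4 to 6, against 49.96%, 64.7% and 52.1% in WT saline 1 to 3, and the groups did not overlap. The means were 35.1 ± 4.12% under glycine and 55.6 ± 7.96% under saline (SD, n = 3 each). In knockout libraries the share was 28.8%, 26.9% and 36.2% in KO glycine 4 to 6, against 50.4%, 34.8% and 34.4% in KO saline 1 to 3, so these groups overlapped. Their means were 30.6 ± 4.92% under glycine and 39.9 ± 9.12% under saline. The 88 nuclear members were read against the counts outside the mitochondrial genome, where they took 1.75%, 1.53% and 1.87% in KO glycine 4 to 6 and 1.34%, 1.07% and 1.17% in KO saline 1 to 3. In wild-type mice the same share was 1.46%, 1.09% and 1.17% in WT glycine 4 to 6 and 1.27%, 1.67% and 1.32% in WT saline 1 to 3. Every knockout glycine library lay above every knockout saline library in this share, and the wild-type groups overlapped. Without WT saline 2 the mitochondrial share averaged 51.0% in WT saline, and without KO saline 1 it averaged 34.6% in KO saline.

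**Figure D1:**
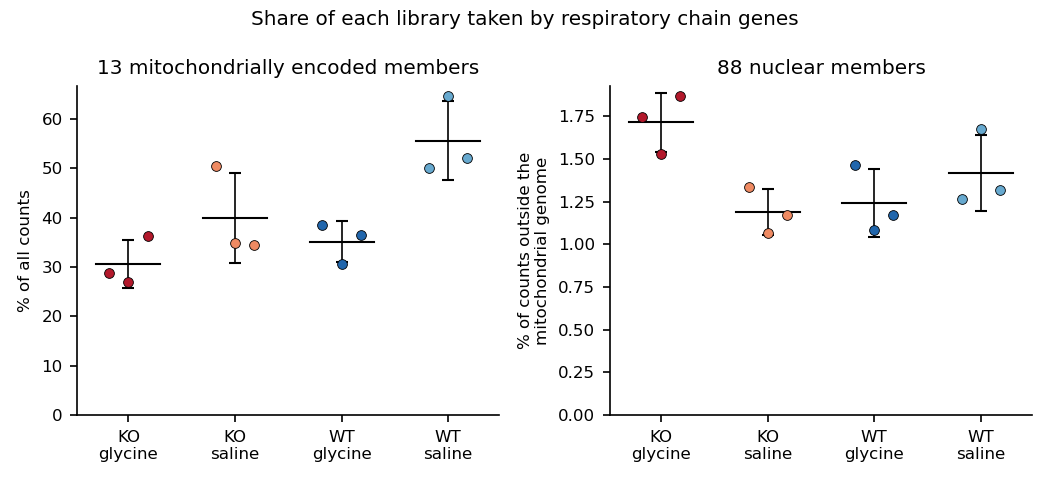
Percentage of all counts on the 13 mitochondrially encoded members (left) and percentage of the remaining counts on the 88 nuclear members (right); points are libraries, and bars are the group mean and SD of 3 libraries. In wild-type libraries the mitochondrial share was 30.6% to 38.5% under glycine and 49.96% to 64.7% under saline, and the nuclear share averaged 1.71% in KO glycine and 1.19% in KO saline.

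In the comparison of glycine with saline in wild-type mice, 4 of the 13 mitochondrially encoded members fell and none rose, while none of the 84 nuclear members passed the test. Calls here and below are an adjusted p below 0.05 in edgeR's quasi-likelihood test, with Benjamini-Hochberg adjustment over 13928 genes. The 4 were mt-Nd5 and mt-Nd4l, core subunits of complex I, with mt-Cytb and mt-Co1. Over all genes 1.39% were called in this comparison, and 0.395% were called lower.

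Levels are given as CPM scaled by TMM (trimmed mean of M-values, which equalises libraries on the bulk of their genes). For mt-Nd5 they were 9280.1, 6286 and 7484 in WT glycine 4 to 6, against 15089, 28658 and 15891 in WT saline 1 to 3. Every glycine library lay below every saline library, and the log2 fold change was −1.37 ± 0.27 (SE) with an adjusted p of 0.0225 (edgeR). mt-Cytb had 66565, 45606 and 53596 in WT glycine 4 to 6, against 104350, 184510 and 106540 in WT saline 1 to 3, a log2 fold change of −1.25 ± 0.28 with an adjusted p of 0.0421. mt-Co1 had 107430, 74200 and 88047 in WT glycine 4 to 6, against 157250, 271640 and 170660 in WT saline 1 to 3, a log2 fold change of −1.15 ± 0.26 with an adjusted p of 0.0451. mt-Nd4l had 485, 377 and 479 in WT glycine 4 to 6, against 778, 1422 and 826 in WT saline 1 to 3, a log2 fold change of −1.17 ± 0.27 with an adjusted p of 0.0465. In each of these the groups were separate, with WT saline 2 the highest library of the 12.

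The other 9 mitochondrial members had negative fold changes without passing the test, from −1.32 for mt-Nd4 (adjusted p = 0.0512) to −0.58 for mt-Nd3 (adjusted p = 0.617). By complex, the median log2 fold change was −1.09 over the 7 transcripts of complex I, −1.13 over the 3 of complex IV and −1.06 over the 2 of complex V. Over all 13 it was −1.12, against −0.11 over the 84 nuclear members and 0.00 over all genes tested. Without WT saline 2 the mitochondrial median was −0.76 and the nuclear one turned to 0.12, with 53 of 84 positive in place of 31. The nuclear median was −0.23 without WT glycine 4 and −0.01 without WT glycine 5 or WT glycine 6, so it has no stable direction. Among mitochondrial members 12 of 13 had an unadjusted p below 0.05 and were lower, where 4.58% of all genes were, and 11 of 13 had groups that did not overlap and were lower, where 7.19% of all genes were. These members are cut from shared precursor RNAs and are not independent of each other. Among nuclear members the smallest p was that of Ndufa9, an accessory subunit of complex I, with a log2 fold change of −0.45 ± 0.16 and an adjusted p of 0.224. At an unadjusted p below 0.05, 1 of 84 nuclear members was higher, where 7.40% of all genes were, and 2 had groups that did not overlap and were higher, where 8.54% of all genes were.

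These calls rest on few libraries. Without WT saline 2, without WT glycine 5 or without WT glycine 6, 0 of 13 mitochondrial members were called, and 1, 3 and 4 were called without WT saline 3, WT glycine 4 and WT saline 1. In the order named, these fits called 1.8%, 0.630%, 0.580%, 0.558%, 1.47% and 0.804% of all genes, against 1.39% with all libraries. Of the 6 macrophage markers 5 were called higher in the same comparison, with a summed level of 6858 to 7250 CPM in WT glycine and 3003 to 4528 CPM in WT saline, none of them at 0 in any library. The 9 endothelial markers summed to 296 to 408 CPM in WT glycine and 504 to 752 CPM in WT saline, with Kdr called lower. The part of either list in the result was not tested.

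In knockout mice 4 of 84 nuclear members rose with glycine and none fell. They were Ndufa11, an accessory subunit of complex I, Uqcr11, a small subunit of complex III, and Cox6a2 and Cox8b, the heart and skeletal muscle isoforms of 2 complex IV subunits. No mitochondrially encoded member passed the test, although all 13 fold changes were negative, with a median of −0.73. Without KO saline 1 that median was −0.34 and 12 of 13 were negative. Of the 13 in the full fit, 9 had an unadjusted p below 0.05 and were lower, where 4.70% of all genes were, and 5 had groups that did not overlap, where 9.59% of all genes were lower in that way. Over all genes 1.13% were called in this comparison and 0.926% were called higher.

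Ndufa11 had 94.0, 90.9 and 113 CPM in KO glycine 4 to 6, against 58.5, 44.9 and 47.0 CPM in KO saline 1 to 3, a log2 fold change of 0.99 ± 0.21 with an adjusted p of 0.0363 (edgeR). Uqcr11 had 194, 162 and 214 CPM in KO glycine 4 to 6, against 120, 99.8 and 92.2 CPM in KO saline 1 to 3, a log2 fold change of 0.87 ± 0.20 with an adjusted p of 0.0493. For both genes the 2 groups were fully separate. Atp5mc1, the most abundant nuclear member, had 432, 345 and 457 CPM in KO glycine 4 to 6, against 236, 160.5 and 188 CPM in KO saline 1 to 3, and its log2 fold change of 1.08 ± 0.26 did not pass the test (adjusted p = 0.0641).

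The nuclear fold changes leaned one way beyond the 4 calls. The median log2 fold change over the 84 nuclear members was 0.44, against −0.01 over all genes, and 76 of the 84 were positive. Of the 84, 45 had an unadjusted p below 0.05 and were higher, where 6.35% of all genes were, and 56 had groups that did not overlap and were higher, where 11.4% of all genes were. By complex the medians were 0.45 over the 36 members of complex I, 0.50 over the 8 of complex III, 0.55 over the 17 tested of complex IV, 0.46 over the 18 tested of complex V and −0.10 over the 4 of complex II. Within complex I the 29 accessory subunits had a median of 0.52 and the 7 catalytic core subunits a median of 0.23. Within complex V the c-ring, peripheral stalk and membrane subunits (12 genes) had a median of 0.55 and the F1 subunits, α to ε (5 genes), a median of 0.27. Cycs, the mobile electron carrier between complexes III and IV, had a log2 fold change of 0.35 ± 0.20 (adjusted p = 0.588).

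The promoters of the nuclear members were read because most nuclear fold changes had 1 sign in this comparison. RefSeq (GRCm38.p6) gave a promoter for 70 of the 87 nuclear symbols, and the 250 bases before the start were searched on both strands for the letters of 5 motifs. The genes set beside them are the 13082 with a promoter and at least 1 count over all libraries. They were taken without the filter on low counts and are not matched to the members in level. GCGCA directly followed by TGCGC, the core of the NRF1 site, was found in 4 of 70 members (5.71%) and in 205 of 13082 genes (1.57%). CCGGAAG, bound by ETS factors such as GABPA, was found in 12 members (17.1%) and in 12.9% of genes. AANATGGC, read by YY1, was found in 7 of 70 members and in 4.72% of genes, TCAAGGTCA, the site of estrogen-related receptors, in 1 (1.43%) and in 0.313%, and CTA and TAG with any 4 bases between them, which holds the MEF2 site, in 1 (1.43%) and in 3.45%. No matches of different motifs overlapped. Of the nuclear members called in any comparison, Ndufs5 and Uqcrc1 had none of the 5 motifs and are not shown. Cox6a2 and Atp5f1a had no promoter. The promoters of 4 members that passed a test are shown 5′ to 3′ on the strand of the gene, with matches in capitals: an NRF1 match in Ndufa11 and an ETS match in Uqcr11, which rose with glycine in the knockout, and none of the 5 motifs in Cox7a2, lower in the knockout under saline, or in the muscle isoform Cox8b.
Ndufa11 (chr17:56717512-56717761, plus strand): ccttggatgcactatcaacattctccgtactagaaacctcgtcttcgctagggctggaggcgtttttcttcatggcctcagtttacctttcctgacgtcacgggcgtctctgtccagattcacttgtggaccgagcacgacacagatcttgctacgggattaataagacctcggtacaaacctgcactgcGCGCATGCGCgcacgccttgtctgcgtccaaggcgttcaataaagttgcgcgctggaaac
Uqcr11 (chr10:80406822-80407071, minus strand): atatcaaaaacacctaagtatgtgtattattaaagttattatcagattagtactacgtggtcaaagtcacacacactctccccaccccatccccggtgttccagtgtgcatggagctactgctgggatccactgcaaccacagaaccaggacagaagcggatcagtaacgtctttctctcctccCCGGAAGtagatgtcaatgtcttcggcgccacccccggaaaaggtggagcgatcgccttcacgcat
Cox7a2 (chr9:79759854-79760103, minus strand): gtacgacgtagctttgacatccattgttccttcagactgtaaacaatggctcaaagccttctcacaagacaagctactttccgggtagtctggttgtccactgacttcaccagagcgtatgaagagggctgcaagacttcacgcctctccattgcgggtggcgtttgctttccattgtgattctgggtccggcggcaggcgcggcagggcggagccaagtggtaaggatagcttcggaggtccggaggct
Cox8b (chr7:140900447-140900696, minus strand): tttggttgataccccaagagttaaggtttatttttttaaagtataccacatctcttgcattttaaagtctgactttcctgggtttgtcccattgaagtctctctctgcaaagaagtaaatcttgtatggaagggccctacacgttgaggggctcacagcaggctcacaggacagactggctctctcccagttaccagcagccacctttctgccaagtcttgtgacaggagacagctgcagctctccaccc
The absence of capitals says only that these letters are not in that window.

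The 4 members of complex II had no common direction. Sdhb, its iron-sulfur subunit, had 263, 253 and 291 CPM in KO glycine 4 to 6, against 242, 224 and 222 CPM in KO saline 1 to 3, and a log2 fold change of 0.23 (adjusted p = 0.701). Sdhc, a membrane anchor, had 58.3, 51.4 and 56.1 CPM in KO glycine 4 to 6, against 80.7, 65.8 and 77.0 CPM in KO saline 1 to 3, and a log2 fold change of −0.43 (adjusted p = 0.480). Sdha, the flavoprotein, was at −0.25 and Sdhd, the other anchor, at 0.04, neither past the test.

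Leaving out single libraries left few of these calls. Of the 4 nuclear calls, 2 were left without KO saline 1 and 0 without any 1 of the other 5 libraries, in fits that then have 2 libraries in a group. Those 2 were Cox6a2 and Cox8b. KO glycine 5, the library with the lower dose label, is among those 5. The share of all genes called was 0.690% without KO saline 1 and 0.399% to 0.860% without the others. The macrophage sum was 7093 to 7864 CPM in KO glycine and 11910 to 16840 CPM in KO saline (1 of 6 called lower, Lyz2). The sum of 5 T cell markers was 136 to 153 CPM in KO glycine and 14.4 to 24.5 CPM in KO saline (2 of 5 called higher, Lck and Trbc2; 1 of 5 at 0 in a KO saline library), and the erythroid sum was 10180 to 21410 CPM in KO glycine and 36570 to 64090 CPM in KO saline, with 0 of 5 called. Their part in the nuclear result was not tested.

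**Figure D2:**
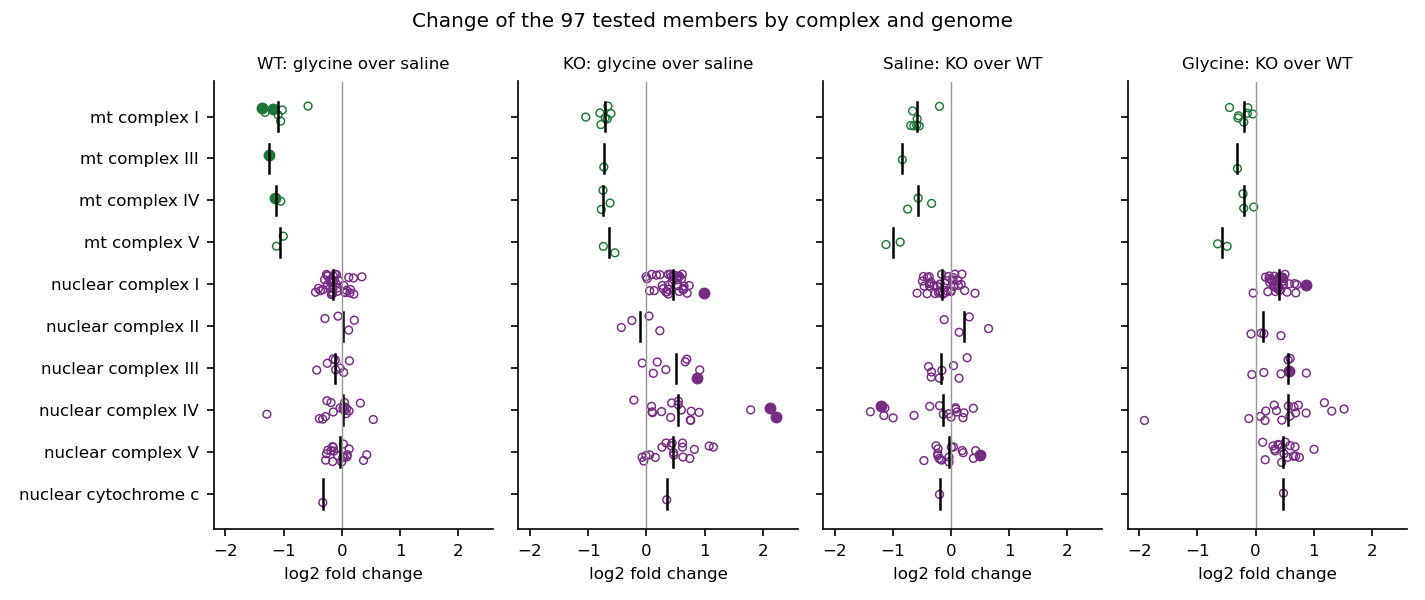
Log2 fold change (edgeR) of the 97 tested members in the 4 pairwise comparisons, by complex and by genome (green, mitochondrially encoded; purple, nuclear); filled points have an adjusted p below 0.05 and black ticks are medians. In wild-type mice glycine went with mitochondrial medians near −1.1 (−1.12 over all 13) and a nuclear median of −0.11, and in knockout mice with −0.73 (−0.34 without KO saline 1) and 0.44.

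**Figure D3:**
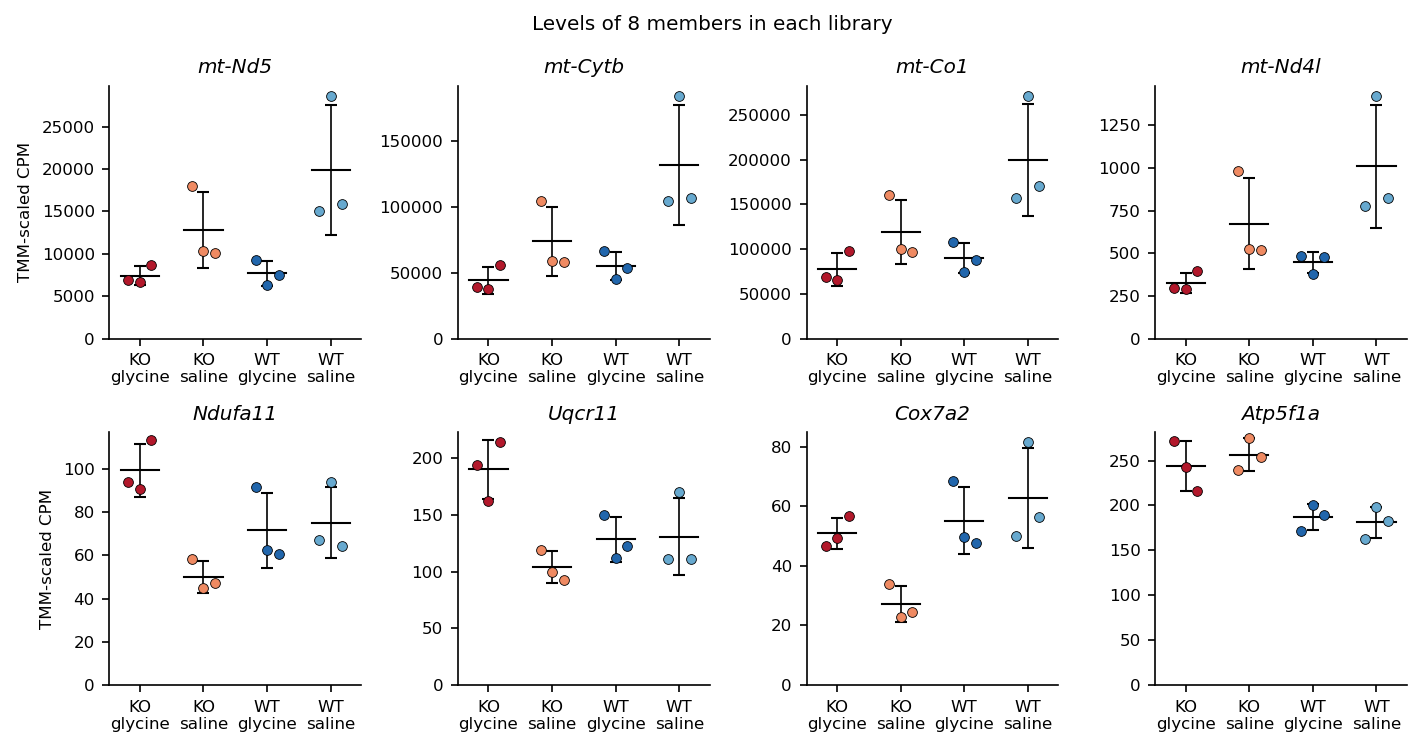
TMM-scaled CPM of 4 mitochondrially encoded members (top) and 4 nuclear members (bottom) in each library, with the mean and SD of 3 libraries per group. The top row is lower in all 3 WT glycine libraries than in WT saline, Ndufa11 and Uqcr11 average highest in KO glycine, and Cox7a2 is lowest in the 3 KO saline libraries.

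The muscle isoforms of complex IV had the largest fold changes of any nuclear members in knockout mice. Cytochrome c oxidase has subunits with paired genes, 1 widely expressed and 1 typical of heart and skeletal muscle. Cox6a2 had 162, 122 and 147.5 CPM in KO glycine 4 to 6, against 42.0, 22.8 and 27.3 CPM in KO saline 1 to 3, a log2 fold change of 2.23 ± 0.45 with an adjusted p of 0.0263 (edgeR). Cox8b had 67.6, 48.2 and 57.4 CPM in KO glycine 4 to 6, against 20.2, 10.1 and 9.82 CPM in KO saline 1 to 3, a log2 fold change of 2.12 ± 0.42 with an adjusted p of 0.0237. Cox7a1, the third such isoform, had 75.1, 50.1 and 76.9 CPM in KO glycine 4 to 6, against 29.2, 14.8 and 14.5 CPM in KO saline 1 to 3, and its log2 fold change of 1.79 ± 0.44 did not pass the test (adjusted p = 0.0682). In all 3 genes the groups were separate. In wild-type mice none passed the test, and their log2 fold changes under glycine were 0.08, −0.33 and −0.38 for Cox6a2, Cox8b and Cox7a1.

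The ubiquitous partners had log2 fold changes of 0.10 (Cox6a1), 0.10 (Cox8a) and 0.91 (Cox7a2, adjusted p = 0.0841) in knockout mice, none past the test, and the isoform make-up differed between groups. Of the summed FPKM of Cox6a1 and Cox6a2, Cox6a2 made up 47.2 ± 5.42% in KO glycine, 16.7 ± 4.0% in KO saline, 23.6 ± 10.5% in WT glycine and 23.8 ± 10.96% in WT saline (SD, n = 3 each). Of Cox8a and Cox8b, Cox8b made up 60.6 ± 5.56% in KO glycine, 27.0 ± 8.28% in KO saline, 40.4 ± 5.29% in WT glycine and 49.3 ± 15.2% in WT saline. Of Cox7a1 and Cox7a2, Cox7a1 made up 68.4 ± 4.99% in KO glycine, 53.4 ± 4.87% in KO saline, 46.9 ± 2.67% in WT glycine and 47.2 ± 10.8% in WT saline. In all 3 pairs the knockout glycine libraries were above the knockout saline libraries without overlap. In wild-type saline the spread came from WT saline 2, where Cox6a2 made up 36.4%, Cox8b 66.4% and Cox7a1 59.5%. Cox4i2, the isoform of subunit 4 known from lung, made up at most 4.35% of its pair, and Cox6b2, known from testis, at most 2.29%.

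Markers of cardiac and skeletal muscle were high in the same libraries. The sum of 10 such markers, among them Myh6, Nppa, Tnnt2 and Mb, was 3962, 2832 and 2856 CPM in KO glycine 4 to 6, against 1123, 642 and 827 CPM in KO saline 1 to 3. It was 1697, 978 and 584 CPM in WT glycine 4 to 6 and 719, 1497 and 589 CPM in WT saline 1 to 3. Of the 10, 5 were called higher in KO glycine than in KO saline (Mb, Tnni3, Myh6, Nppa and Actn2), and none of the 10 was at 0 in any library. The highest library within each group was the same for the marker sum as for Cox6a2, namely KO glycine 4, KO saline 1, WT glycine 4 and WT saline 2. Leaving the 3 muscle isoforms aside, the other 81 nuclear members had a median log2 fold change of 0.43 in knockout mice, with 2 called higher. The part of muscle RNA in the nuclear result was not tested.

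**Figure D4:**
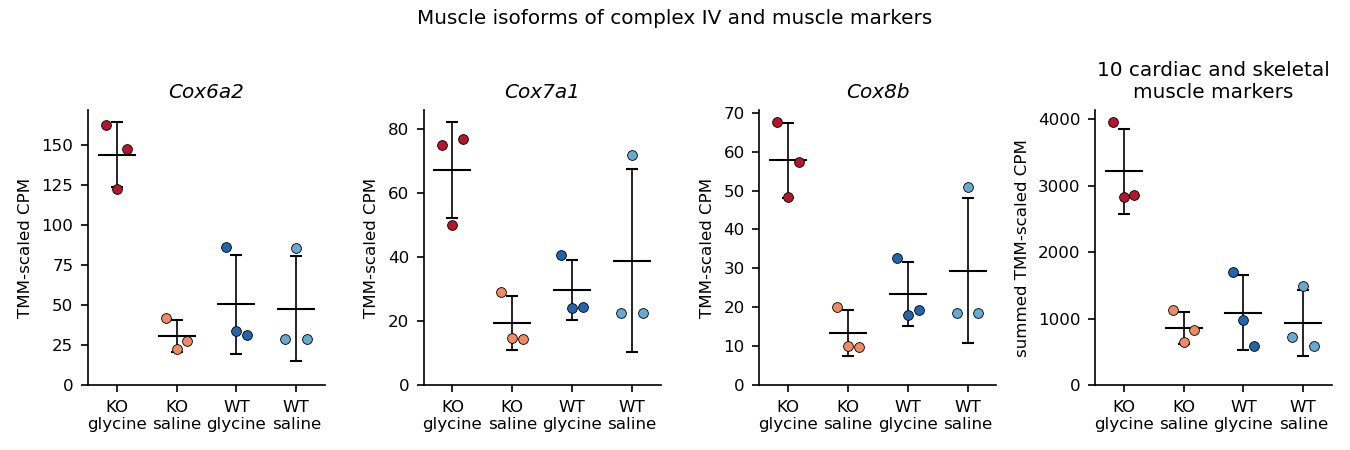
TMM-scaled CPM of the muscle isoforms Cox6a2, Cox7a1 and Cox8b and the summed CPM of 10 cardiac and skeletal muscle markers in each library, with the mean and SD of 3 libraries per group. The marker sum was 2832 to 3962 CPM in KO glycine and at most 1697 CPM in the other groups, and the 3 isoforms were higher in every KO glycine library than in any KO saline library.

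Knockout and wild-type mice under saline differed in 2 nuclear members, 1 in each direction, of 84 tested. In this comparison 11.3% of all genes were called, 6.04% higher and 5.26% lower, so a smaller share of the members was called than of all genes. Cox7a2, the widely expressed form of complex IV subunit 7a, had 34.1, 23.0 and 24.6 CPM in KO saline 1 to 3, against 50.2, 81.7 and 56.4 CPM in WT saline 1 to 3. Every knockout library was below every wild-type one, with a log2 fold change of −1.21 ± 0.24 and an adjusted p of 0.00356 (edgeR). The call held in all 6 fits that left out 1 library, with adjusted p up to 0.0244. Atp5f1a, the α subunit of the ATP synthase head, had 239.9, 276 and 254 CPM in KO saline 1 to 3, against 163, 198 and 182 CPM in WT saline 1 to 3, a log2 fold change of 0.50 ± 0.14 with an adjusted p of 0.0341. Its groups were separate, but the call was lost in 4 of the 6 leave-one-out fits, where adjusted p reached 0.141 without KO saline 2. Over the 84 nuclear members 3 were called without WT saline 2 or without KO saline 1, and 1 without any 1 of the other 4 libraries. The share of all genes called was 10.4% without WT saline 2, 9.64% without KO saline 1 and 7.09% to 8.68% without the others. In complex II Sdhb, Sdhc and Sdhd were each higher in all 3 KO saline libraries than in any WT saline library, where 15.3% of all genes were, but none passed the test (log2 fold changes 0.14, 0.64 and 0.31).

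No mitochondrially encoded member was called between the genotypes under saline, and 7 of 13 had an unadjusted p below 0.05 and were lower, where 11.6% of all genes were. The lowest fold changes were those of ATP synthase, with mt-Atp8 at −1.12 ± 0.38 (adjusted p = 0.0745) and mt-Atp6 at −0.87 ± 0.30 (adjusted p = 0.0823). The smallest p was that of mt-Cytb, at −0.84 ± 0.28 (adjusted p = 0.0705, edgeR). It alone of the 13 had groups that did not overlap, where 14.7% of all genes were lower in that way. The margin was narrow, at 104300 CPM in KO saline 1 and 104350 CPM in WT saline 1. mt-Atp6 had 119310, 60822 and 56916 CPM in KO saline 1 to 3, against 106570, 209440 and 118300 CPM in WT saline 1 to 3. KO saline 1 lay among the wild-type libraries. Without that library 9 of the 13 were called lower, without WT saline 1 it was 1 of 13, and without any 1 of the other 4 libraries 0. Of all genes 9.64% were called without KO saline 1, 8.58% without WT saline 1 and 7.09% to 10.4% without the others. The median over the 13 was −0.64, and it was −0.24 without WT saline 2 and −0.99 without KO saline 1. Over the nuclear members it was −0.13, and it was 0.06 without WT saline 2, −0.19 without WT saline 1 and −0.07 without KO saline 2. In the same comparison 6 of 6 macrophage markers were called higher in the knockout and 6 of 6 fibroblast markers lower, with summed levels of 11910 to 16840 CPM and 6234 to 8181 CPM in KO saline and of 3003 to 4528 CPM and 14660 to 21300 CPM in WT saline. None of these 12 markers was at 0 in a library, and their part in the result was not tested.

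Under glycine 2 of 84 nuclear members were higher in the knockout than in the wild type and none was lower. Of all genes 2.56% were called and 1.50% were called higher, so the share of members called was near that of all genes. Ndufs5, an accessory subunit of complex I, had 79.4, 65.9 and 87.9 CPM in KO glycine 4 to 6, against 45.8, 37.1 and 45.6 CPM in WT glycine 4 to 6, a log2 fold change of 0.86 ± 0.19 with an adjusted p of 0.0268 (edgeR). Uqcrc1, a core protein of complex III, had 452, 377 and 409.7 CPM in KO glycine 4 to 6, against 269.7, 299 and 267 CPM in WT glycine 4 to 6, a log2 fold change of 0.57 ± 0.13 with an adjusted p of 0.0290. Both were separate between the groups, where 11.2% of all genes were separate and higher. The median over the 84 nuclear members was 0.42, with 79 positive, and 41 had an unadjusted p below 0.05 and were higher, where 6.79% of all genes were. All 13 mitochondrial fold changes were negative (11 of 13 on the log2(FPKM + 1) scale), with a median of −0.22. The median was −0.47 without KO glycine 6, −0.34 without WT glycine 5, −0.14 without KO glycine 4 or WT glycine 4 and −0.11 without KO glycine 5, where 10 of 13 were negative. None was called, and none had an unadjusted p below 0.05, where 6.99% of all genes were lower.

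The number of calls depended on WT glycine 4. Without it 15 of 84 nuclear members were called higher, 2 were without KO glycine 5, and 0 were without WT glycine 5, WT glycine 6, KO glycine 4 or KO glycine 6. The share of all genes called was 2.72% without WT glycine 4, 1.25% without KO glycine 5 and 0.971% to 1.36% in the other fits. Of the 2 calls above, Uqcrc1 was lost in all 6 of these fits, with adjusted p up to 0.140, and Ndufs5 in 4 of the 6, with adjusted p up to 0.128. In WT glycine 4 the nuclear members took 1.46% of counts outside the mitochondrial genome, against 1.09% and 1.17% in the other two of its group, and it also had the highest sum of muscle markers of that group. The muscle markers were called higher in KO glycine than in WT glycine for 4 of 10 (Mb, Myl7, Tnnt2 and Actn2), with sums of 2832 to 3962 CPM in KO glycine and 584.0 to 1697 CPM in WT glycine. Fibroblast markers summed to 9055 to 10980 CPM in KO glycine and 15060 to 16390 CPM in WT glycine, with 1 of 6 called lower (Lum). The part of these lists in the result was not tested. Comparisons that share a group, such as the 2 that use WT glycine, share its libraries and are not independent of each other.

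Whether the response to glycine differed between genotypes was tested by the interaction, which called 0 of the 97 members by edgeR, 0 higher and 0 lower, where 1.12% of all genes were called, 0.273% higher and 0.847% lower. The smallest adjusted p was that of Cox8b, whose log2 difference between the responses was 2.44 ± 0.58 (adjusted p = 0.0588). Next were Cox7a1 at 2.18 ± 0.61 (adjusted p = 0.112) and Ndufa11 at 1.06 ± 0.30 (adjusted p = 0.119). Of the nuclear members 35 of 84 had an unadjusted p below 0.05 and were higher, where 5.90% of all genes were. Their median was 0.55, and it was 0.39 without WT saline 2 and 0.59 without KO saline 1. DESeq2 called 6 nuclear members, and edgeR called 10 without WT glycine 4 and 1 each without WT saline 3 and without KO saline 1, all of them higher. The share of all genes called was 4.10% by DESeq2 and, in the same order, 2.35%, 0.858% and 1.14% in these edgeR fits. Of the mitochondrial members none had an unadjusted p below 0.05. Their median of 0.39 ran from 0.01 without WT saline 2 to 0.78 without KO saline 1.

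Within each library the mitochondrial and nuclear members can be set against each other, which depends little on how libraries are scaled. The balance is the mean log2(FPKM + 1) of the 13 mitochondrial members minus that of 79 nuclear members, the tissue isoforms left out. It was 6.20, 6.24 and 6.62 in KO glycine 4 to 6, against 7.96, 7.27 and 7.13 in KO saline 1 to 3. In wild-type mice it was 7.04, 6.92 and 7.25 in WT glycine 4 to 6, against 7.80, 8.37 and 7.95 in WT saline 1 to 3. The glycine libraries were lower without overlap in both genotypes, by 1.10 in the knockout and 0.97 in the wild type. As ratios of geometric means, mitochondrial members exceeded nuclear ones 81.7-fold in KO glycine, 175-fold in KO saline, 134-fold in WT glycine and 263-fold in WT saline. Without WT saline 2 the mean balance was 7.87 in WT saline, and without KO saline 1 it was 7.20 in KO saline. No p is given, since it is a score over chosen members.

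In wild-type mice the mitochondrial median fold change was −1.12 and the nuclear one −0.11, and in the knockout they were −0.73 and 0.44. Without WT saline 2 the wild-type values were −0.76 and 0.12, and without KO saline 1 the knockout values were −0.34 and 0.54. No member passed the interaction test. By complex the balance differed between KO glycine and KO saline by −1.15 in complex I, −1.16 in complex III, −1.18 in complex IV and −0.98 in complex V. Between WT glycine and WT saline these were −0.91, −1.11, −1.05 and −0.98 in the same order of complexes. Between the genotypes the difference was largest in complex V, at −1.06 under glycine and −1.05 under saline. In the other complexes it was −0.62 to −0.79 under glycine and −0.43 to −0.74 under saline. These differences by complex use all libraries and were not computed without WT saline 2 or KO saline 1. In complex V the balance was 9.31, 8.40 and 8.25 in KO saline 1 to 3. It was 9.40 and 9.67 in WT saline 1 and 3, with WT saline 2 higher. In complex I it was 6.90, 6.18 and 6.03 in KO saline 1 to 3. The size of the differences that use saline groups therefore depends on these libraries.

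**Figure D5:**
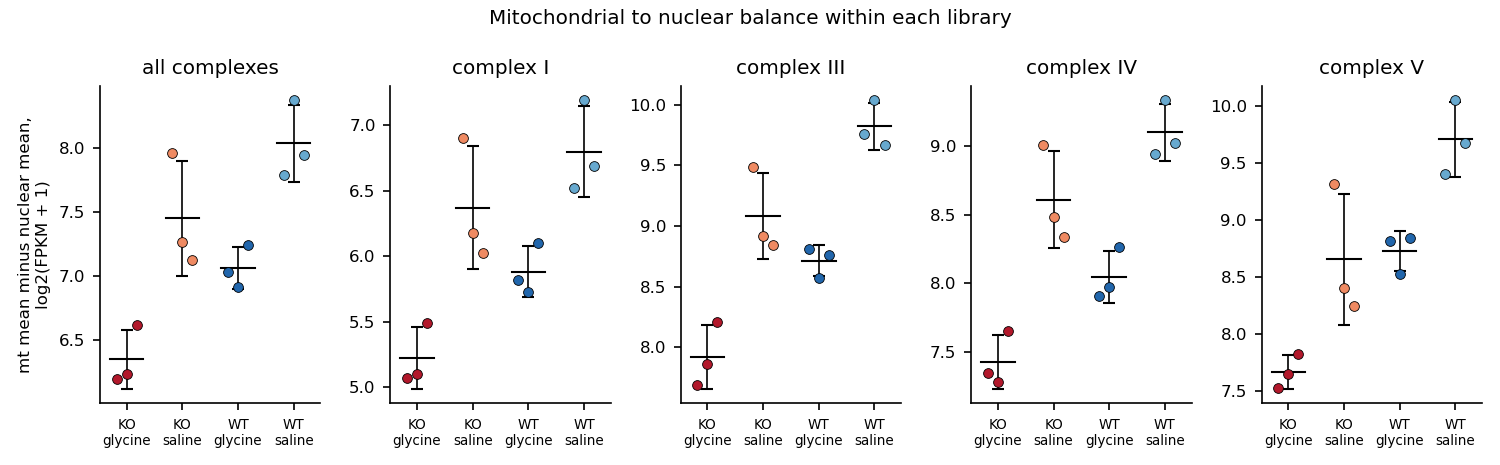
Mean log2(FPKM + 1) of mitochondrially encoded members minus that of nuclear members in each library, over all complexes and in complexes I, III, IV and V, with the mean and SD of 3 libraries per group; the vertical axes do not start at 0. In the first panel KO glycine spans 6.20 to 6.62 and KO saline 7.13 to 7.96, and WT glycine spans 6.92 to 7.25 and WT saline 7.80 to 8.37.

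The other lists of mitochondrial biology held no called gene in either comparison of glycine with saline. Of all genes 1.39% were called in the wild type and 1.13% in the knockout. At such shares few calls are to be expected in lists of this size, so 0 calls do not set these lists apart. In knockout mice under glycine, none of 15 genes of mitochondrial transcription and replication passed the test (median log2 fold change −0.13), none of 10 regulators of mitochondrial biogenesis (median 0.00), none of 45 assembly factors (0.14), none of 78 mitochondrial ribosomal proteins (0.18), none of 17 genes of the tricarboxylic acid cycle (−0.03), none of 5 chain subunits outside the rule (0.36) and none of 14 membrane and carrier genes (0.01), against 0.44 for the nuclear chain members. The 79 proteins of the cytosolic ribosome, also short and abundant transcripts, had a median of 0.12 with none called. In wild-type mice the list medians ran from −0.13 to 0.10. Between genotypes under saline, where 11.3% of all genes were called, 2 of 5 chain subunits outside the rule, 1 of 45 assembly factors, 1 of 17 genes of the tricarboxylic acid cycle, 1 of 14 membrane and carrier genes, 1 of 79 cytosolic ribosomal proteins and 0 genes of the other 3 lists were called. These were Ndufa4l2 (log2 fold change −1.74, adjusted p = 0.00265) and Higd1a (−0.76, adjusted p = 0.0205), both known as hypoxia-responsive, Timmdc1, an assembly factor of complex I (−1.31, adjusted p = 0.0278), and Pdhb of the pyruvate dehydrogenase complex (−0.56, adjusted p = 0.0300), which fell, and Slc25a5, an adenine nucleotide carrier (0.53, adjusted p = 0.0231), and Rps9, a ribosomal protein, which rose (all edgeR). Between genotypes under glycine, where 2.56% of all genes were called, the only one among these lists was Mdh2, malate dehydrogenase. Mdh2 was higher in the knockout by 0.60 (log2, adjusted p = 0.0188, edgeR).

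The nuclear fold changes under glycine varied with transcript length in knockout mice. Among the 84 tested nuclear members, the Spearman correlation of length with the log2 fold change under glycine was −0.59 in the knockout and −0.19 in the wild type, against −0.13 and −0.06 over all 13928 genes. For knockout against wild type the same correlation stood at 0.44 (saline) and −0.15 (glycine), against −0.09 and −0.18 over all genes, so its sign was not the same in every comparison. These are correlations across genes, which are not independent replicates. In the knockout the 62 members under 1000 bases had a median of 0.55 and the 22 longer ones a median of 0.09, while over all genes the 1176 under 1000 bases had a median of 0.26 and the longer ones −0.04. Long members without a rise included Sdha (2900 bases) and Ndufs1 (2517 bases, log2 fold change 0.01). The length used by the authors was read from the ratio of their counts to their FPKM. The part of length in the result was not tested.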

How the data were processed

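RNA-seq was made from 12 mouse libraries in 4 groups of 3, and groups were taken from the labels. The table holds 2 values per gene and library. The expected counts were deposited by the authors and are not normalized, and 10.38% of them are not whole numbers. The FPKM values were also deposited by the authors, scaled by the authors to length and library size. The submitters' processing notes name RSEM, Bowtie2 2.2.8, StringTie 1.3.1 and HISAT2 2.1.0, without saying what each did. The sources used here give no genome build or strandedness.

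Expected counts were rounded, filtered with filterByExpr (13928 genes kept), scaled by TMM and fitted over all 12 libraries with edgeR 4.0.16 (robust quasi-likelihood, R 4.3.3), with no covariate. The 5 contrasts were glycine against saline in each genotype, genotype in each treatment, and the interaction. P-values were adjusted by Benjamini-Hochberg over all genes tested, and an SE is the fold change divided by the square root of F. Alternatives were DESeq2 1.42.0, limma 3.58.1 on log2(FPKM + 1) or log2(FPKM + 0.1), other scalings and filters, fits on the compared groups alone, a replicate block and leaving out each library. The procedure was tested on simulated counts. Exact permutation of 3 against 3 libraries cannot go below p = 0.1 and was not used. Members, marker lists and pathway lists were chosen with earlier results of these data known. The text names the called members, the 13 mitochondrial members, the 3 muscle isoforms, members just outside the threshold and, as examples chosen after their values were seen, the abundant or long members. Levels of single members were compared between genes as FPKM. Marker lists were compared as summed CPM and the proportions of mitochondrial transcripts as counts, neither of them divided by transcript length. At these library totals 3 counts are worth 0.124 to 0.207 CPM, a limit that covers counting error only. Overlaps came from GENCODE vM21 transcripts, and promoters from RefSeq, both on GRCm38.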

Additional observations from a re-analysis of the deposited data

How the results depend on the processing

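Other scalings of the counts and a stricter filter left every count of called members within 1.5 times of the reported one. Between genotypes the replicate numbers do not pair the libraries (r of −0.05 to 0.01 between same-numbered deviations), and the fit with a replicate block called 1 nuclear member under saline and 0 under glycine. That fit called 9.10% and 1.57% of all genes in these comparisons. DESeq2 called 9 mitochondrial members with glycine in the wild type, and 1 mitochondrial and 14 nuclear members in the knockout. It called 3 mitochondrial members between genotypes under saline, 19 nuclear members under glycine and 6 in the interaction. Of all genes DESeq2 called 3.98%, 3.76%, 15.9%, 5.71% and 4.10% in the same order of comparisons, more than edgeR in each. Without a filter, 1 mitochondrial member was called between genotypes under saline, 5 nuclear ones under glycine and 1 in the interaction. The share of all genes called there was 9.24%, 2.40% and 1.23%. With the compared groups alone, 0 mitochondrial members were called in wild-type glycine, 12 nuclear ones in knockout glycine and 4 between genotypes under glycine. This setting called 0.243%, 2.57% and 2.86% of all genes in these comparisons.

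FPKM are scaled to all reads, mitochondrial ones included. On this scale the median of all genes stood at 0.34, 0.22, 0.17 and 0.07 (glycine in wild type and knockout, genotype under saline and glycine), and that of nuclear members at 0.36, 0.75, 0.15 and 0.53. limma called 9, 51, 5 and 23 nuclear members there, 3 in the interaction, and 1 mitochondrial member each in knockout glycine and between genotypes under saline. Mitochondrial calls in wild-type glycine on this scale are not listed here. All 13 fold changes were negative there, with a median of −0.61. Of all genes 7.87%, 5.25%, 11.6%, 4.53% and 2.02% (interaction) were called there, so the nuclear counts in the wild type and under saline are near or below the share of all genes. With a pseudocount of 0.1 the member counts were, in the same order, 10, 50, 6, 21, 3, 1 and 1. The shares of all genes were then 7.80%, 4.31%, 11.6%, 3.36% and 1.39%. As a share of summed FPKM, mitochondrial members made up 42.0% in KO glycine, 50.8% in KO saline, 48.7% in WT glycine and 69.0% in WT saline.

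Leaving out 1 library gave 0 to 4 mitochondrial calls in wild-type glycine and 0 to 9 between genotypes under saline. Nuclear calls were 0 to 2 in knockout glycine, 1 to 3 and 0 to 15 between genotypes under saline and glycine, and 0 to 10 in the interaction. These fits called 0.558% to 1.8% of all genes in wild-type glycine and 0.399% to 0.860% in knockout glycine. They called 7.09% to 10.4% and 0.971% to 2.72% between genotypes under saline and glycine, and 0.419% to 2.35% in the interaction. Values that changed sign were never called. With FPKM, wild-type glycine gave 0.27 for Cox7a1 and 0.25 for Cox8b (0.28 and 0.26 with a pseudocount of 0.1), and mt-Nd3 was at 0.035 between genotypes under saline with either. Without single libraries, wild-type glycine gave −0.51 to 0.82 for Cox6a2, −0.66 to 0.42 for Cox7a1 and −0.60 to 0.34 for Cox8b. Between genotypes under saline mt-Nd3 ran from −0.63 to 0.20, mt-Co2 from −0.65 to 0.026 and Cox6a2 from −0.90 to 0.11, and mt-Atp8 from −0.79 to 0.085 in knockout glycine. The causes were not tested. At this depth Cox7b2, Cox8c and Cox5b-ps were too low to test.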
